A study of Mus musculus with 15 samples.

Results

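The genes described here are 9 components and regulators of the complement system, C1ra, C2, Cfb, C4b, C3, C6, C7, Serping1 and Cd59a. They were taken by gene name from the 52420 genes that the expression table of each mouse lists once, and all 9 were found in all 15 mice. The tissue was the left 4th mammary fat pad of female nu/nu nude mice (Crl:NU-Foxn1 nu). Vehicle mice (n = 8) received PEG300 with 1% DMSO and BDE-47 mice (n = 7) received BDE-47 in the same solution, through osmotic pumps under the skin. Dosing aimed at 0.03 mg per kg body weight and day, began after 8 weeks of age and lasted 16 weeks. BDE-47 is a polybrominated diphenyl ether, a class of flame retardants that persists in the environment and in fat. The study asked what long exposure to a low dose does to DNA maintenance and to innate immunity in the mammary gland, and complement belongs to the second of these. All mice of both groups were athymic, so the tissue came from animals without normal T cell development, and the study's models allowed for a xenograft in the region, which the labels do not assign to single mice. RNA was measured with QuantSeq 3′ FWD, which makes 1 tag near the 3′ end of each transcript, and values were log2(CPM), where CPM is the number of tags per 1000000 mapped reads. A gene under 1 CPM was listed at 0, called the floor below.

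Complement is a cascade of plasma and membrane proteins that marks microbes and damaged cells for removal. The classical, lectin and alternative pathways each build a convertase that cleaves C3, the shared step, and the cascade ends in a membrane attack complex that opens pores in target membranes. Inhibitors in plasma and on host cells keep the cascade from damaging self. The liver makes most plasma complement, while macrophages, fibroblasts and adipocytes also make components locally, and fat is a main source of complement factor D, the protease that activates factor B.

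Each mouse had 10.06 to 19.58 M mapped reads, a depth recovered from the spacing of the low values, and the medians were 15.19 M for vehicle and 14.38 M for BDE-47 mice. The floor of 1 CPM therefore stood for about 10.06 to 19.58 reads. Markers of adipocytes, luminal epithelium and myoepithelium, the cells expected in a mammary fat pad, were above the floor in every mouse, with at least 7, 6 and 5 of the 8 markers of each list. Vehicle replicates 6 and 8 stood apart from the rest. All 8 B cell and lymph node markers were above the floor in both, with summed levels of 524 and 708 CPM, against 0 to 4.05 CPM in the other 6 vehicle mice and 0 to 2.37 CPM in the BDE-47 mice. Their summed adipocyte markers were 354 and 935 CPM, against 6610 to 21068 CPM in the other vehicle mice. The summed skeletal muscle markers of BDE-47 replicate 6 were 108850 CPM, against 48.4 to 133 CPM in the other BDE-47 mice. Each result below is therefore given for all 15 mice and for the 13 mice without vehicle replicates 6 and 8, and where it matters for the 12 mice that also leave out BDE-47 replicate 6. The 13-mouse values rest on 6 vehicle mice.

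Complement transcripts in this tissue covered a wide range of levels. C3 was the highest of the 9 genes, with a mean of 318 CPM over the 15 mice, rank 147 of the 16288 genes above the floor in at least 1 mouse. C4b followed with 295 CPM (rank 162). With 13 mice this order was reversed: C4b was the highest of the 9 genes, and the C3 mean was 266.9 CPM. The inhibitors Serping1 and Cd59a had means of 145 and 84.1 CPM. C2, C6 and C1ra were low, with 24.6, 9.31 and 7.11 CPM. With 13 mice their means were 15.5, 1.88 and 7.53 CPM, so C6 was then below C1ra. Because 1 tag is made per transcript, these CPM levels were not divided by transcript length. C3 and C4b, the 2 thioester proteins that become fixed to target surfaces, overlapped in their ranges of 6.81 to 9.55 and 3.95 to 9.91 log2 CPM. Within a mouse, C4b was the higher in vehicle replicates 2, 3, 4 and 7 and BDE-47 replicates 1, 2, 3, 4 and 7. C3 was the higher in the rest. Cfb and C7 were listed at 0 in all 15 mice. For scale, Cfd, the adipocyte-made factor D, had 5861 CPM and rank 7.

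**Figure D1:**
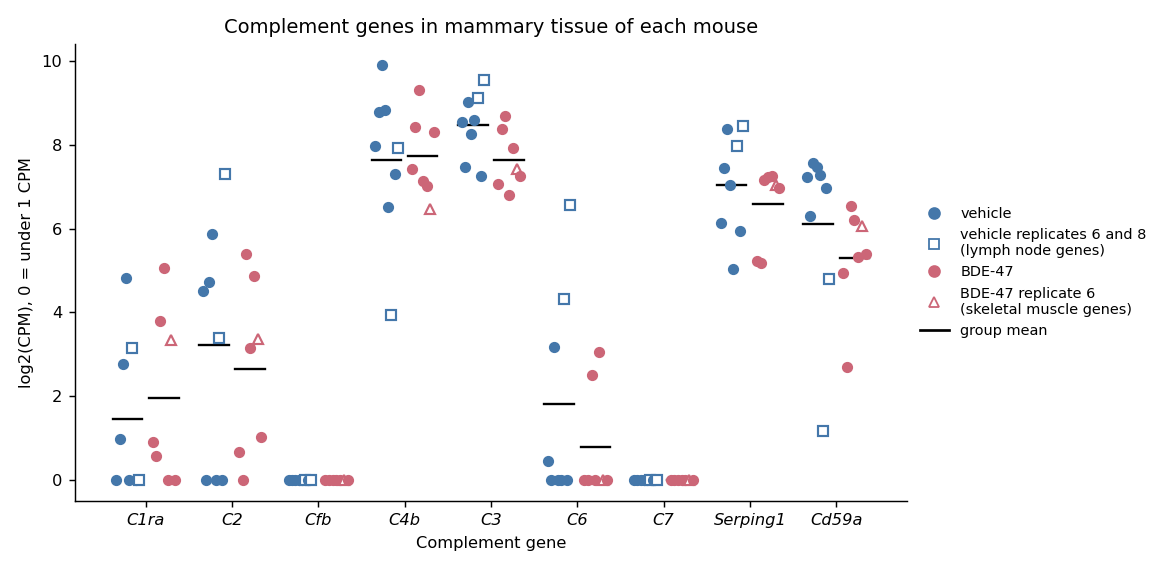
Level of each of the 9 complement genes in each mouse, as log2(CPM) on the vertical axis with the floor of 1 CPM drawn at 0, for vehicle (blue, n = 8) and BDE-47 (red, n = 7) mice; bars are group means, open squares the vehicle mice with lymph node genes and the open triangle the BDE-47 mouse with skeletal muscle genes. C3, C4b, Serping1 and Cd59a were above the floor in every mouse, C1ra, C2 and C6 in some, and Cfb and C7 in none, and the groups overlap for every gene.

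None of the 9 genes passed the test between BDE-47 and vehicle mice. The test was limma on log2 CPM over the 9500 genes above the floor in at least 7 mice, with p-values adjusted by Benjamini-Hochberg over all 9500. It called 0% of those genes at an adjusted p under 0.05, with 15 mice and with 13. The exact permutation test over mice, adjusted the same way, also called none. Its smallest possible p is 0.000155 with 15 mice and 0.000583 with 13. Over 9500 genes it could pass only if many genes came near that limit, so its adjusted result adds little. At an unadjusted p under 0.05, limma gave 442 genes and the exact test 420 with 15 mice, and 428 and 403 with 13. Of the 9 members, 6 entered the fit: C6 was above the floor in too few mice, and Cfb and C7 in none. Group means were lower with BDE-47 for 4 of the 6 (C2, C3, Serping1 and Cd59a) and higher for C1ra and C4b, beside 50.9% of all genes tested that were lower. Only C3 had an unadjusted limma p under 0.05 with 15 mice, and only Cd59a with 13. The median of the 6 differences was -0.53 log2 units, beside -0.017 for all genes tested. Without vehicle replicates 6 and 8 the counts were again 4 lower and 2 higher, with C4b now lower and C2 now higher, the median was -0.29, and 53.4% of all genes were lower with a median of -0.070.

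C1ra encodes C1r, the protease of the C1 complex that activates C1s at the start of the classical pathway. It ranged from 0 to 4.83 log2 CPM in vehicle mice (median 0.48) and from 0 to 5.05 in BDE-47 mice (median 0.92). It exceeded the floor in 4 of the 8 vehicle and 5 of the 7 BDE-47 mice, and the highest mouse of each group was replicate 4. The difference of means was 0.49 (SE 0.98, limma adjusted p = 0.994, exact permutation p = 0.623), smaller than the spread within either group (SD 1.88 and 2.06), and 0.53 with 13 mice.

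C2 supplies the catalytic subunit of the convertase of the classical and lectin pathways. Its levels ran from 0 to 7.30 log2 CPM in vehicle mice (median 3.95) and from 0 to 5.39 in BDE-47 mice (median 3.14). The highest value of all, 7.30, was that of vehicle replicate 8, a lymph node mouse, and 3 vehicle mice and 1 BDE-47 mouse were at 0. BDE-47 minus vehicle was -0.59 (SE 1.19, limma adjusted p = 0.994, exact permutation p = 0.657) with 15 mice and 0.12 with 13, so the sign changed without the lymph node mice. This difference was -0.56 without vehicle replicate 6 alone and -0.006 without replicate 8 alone. It was 0.21 over all 15 mice with log2(CPM + 0.1). The gene lies on chromosome 17 (GRCm38.p6, 34862602 to 34882100), 87 bases from Cfb.

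Cfb encodes factor B, which does in the alternative pathway what C2 does in the classical one. It was listed at 0 in all 15 mice, the value given to a gene under 1 CPM, a floor of about 10.06 to 19.58 reads here. A difference between the groups was therefore not detectable in these values. Its gene (34856374 to 34862514 on chromosome 17) is covered by a second gene model on the same strand, Gm20547, which also spans C2 and was listed at 0 in all mice too. Nelfe, on the opposite strand, overlaps Cfb as well and was above the floor in 10 mice. How reads shared between such models were counted is not given in the sources used here, and its part in the values of Cfb and C2 was not tested.

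C4b encodes mouse complement C4, the part of the classical convertase that binds covalently to the target. Vehicle mice ranged from 3.95 to 9.91 log2 CPM (median 7.94) and BDE-47 mice from 6.47 to 9.30 (median 7.42). The lowest value was that of vehicle replicate 6 and the highest that of vehicle replicate 3, so the BDE-47 mice lay wholly inside the vehicle range. The means differed by 0.08 (SE 0.54, limma adjusted p = 0.999, exact permutation p = 0.929) with 15 mice and by -0.49 with 13 (exact permutation p = 0.424). C4a, the neighbouring copy 65.2 kb away, was above the floor in 3 mice. The last 300 transcript bases of C4b and C4a were 98% identical with a shared run of 131 bases, so the split of 3′ tags between these genes is uncertain and the C4b values may hold reads of both.

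C3 is the protein on which all pathways converge, and its cleavage coats targets and releases the anaphylatoxin C3a. Levels ran from 7.26 to 9.55 log2 CPM in vehicle mice (median 8.57) and from 6.81 to 8.68 in BDE-47 mice (median 7.41). The 2 lymph node mice were the highest, at 9.10 and 9.55, and 1 of 7 BDE-47 mice (replicate 3) was above the vehicle median, while 6 of 7 were below the vehicle mean. The mean was 8.48 ± 0.79 (SD, n = 8) in vehicle and 7.64 ± 0.70 (SD, n = 7) in BDE-47 mice, a difference of -0.83 (SE 0.38, 95% interval -1.60 to -0.07) or 1.78-fold lower. Its unadjusted limma p was 0.0331, its adjusted p was 0.982, and the exact permutation p was 0.0545. Of all genes tested, 2.72% had an unadjusted limma p under 0.05 with a lower mean. Without the lymph node mice the difference was -0.55 (limma p = 0.138, exact permutation p = 0.182). In tissue samples such as these, fewer cells of a type that makes C3 and less C3 RNA per cell cannot be told apart.

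The promoter table of RefSeq (GRCm38.p6), which holds 250 bases before to 50 after a transcription start, has 5 of the 9 genes, C1ra, C3, C6, C7 and Cd59a. Interferon and NF-κB signals were central to the study, so 3 short motifs were searched on both strands: the interferon-stimulated response element core (TTCNNTTTC), an NF-κB consensus, and the TATA box (TATAAA). The windows of C3 and Cd59a, the members with the lowest p-values, and of C7, the one with 2 motifs, are shown with every match in capitals. They lie at chr17:57228087-57228386 (minus strand), chr2:104095551-104095850 (plus strand) and chr15:5063724-5064023 (minus strand), and are written in the direction of the gene.
C3: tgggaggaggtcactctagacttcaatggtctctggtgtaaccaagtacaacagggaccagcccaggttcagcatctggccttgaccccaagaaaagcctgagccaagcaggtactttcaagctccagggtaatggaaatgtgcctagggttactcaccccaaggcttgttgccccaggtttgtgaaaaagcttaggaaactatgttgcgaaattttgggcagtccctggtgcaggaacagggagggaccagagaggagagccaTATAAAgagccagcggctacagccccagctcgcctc
Cd59a: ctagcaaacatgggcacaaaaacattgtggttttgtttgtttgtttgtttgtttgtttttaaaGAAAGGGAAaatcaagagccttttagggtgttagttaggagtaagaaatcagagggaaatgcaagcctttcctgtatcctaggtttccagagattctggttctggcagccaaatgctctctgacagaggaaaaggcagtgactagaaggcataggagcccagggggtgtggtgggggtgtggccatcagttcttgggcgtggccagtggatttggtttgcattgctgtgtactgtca
C7: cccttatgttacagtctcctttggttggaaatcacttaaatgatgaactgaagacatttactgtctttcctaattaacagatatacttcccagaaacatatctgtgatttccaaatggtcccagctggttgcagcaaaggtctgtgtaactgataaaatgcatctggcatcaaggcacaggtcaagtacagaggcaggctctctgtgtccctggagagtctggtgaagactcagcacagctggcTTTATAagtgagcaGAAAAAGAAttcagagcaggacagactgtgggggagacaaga
The C3 window held the letters TATAAA at bases 15 to 20 after the listed start. Cd59a held an interferon response core on the reverse strand at bases -187 to -179. C7 held one on the reverse strand at bases 9 to 17, and TATAAA on the reverse strand at -6 to -1. The C1ra and C6 windows held none of the 3 motifs, and the NF-κB consensus was in none of the 5. Among all 32851 promoters in the table, 8.56% held the interferon core, 8.46% the NF-κB consensus and 13.6% the TATA box. A match of letters is a description of the window and says nothing about binding.

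C6 and C7 join C5b in the first steps of the membrane attack complex. C6 ranged from 0 to 6.57 log2 CPM in vehicle mice (median 0.22) and from 0 to 3.06 in BDE-47 mice (median 0). Values exceeded the floor in 4 of the 8 vehicle and 2 of the 7 BDE-47 mice (Fisher's exact test, two-sided p = 0.608), and the 2 highest were the lymph node mice, with 6.57 and 4.32. The study picked genes by a change of more than 2-fold, with xenograft controlled for. By that size limit alone, with no such control, C6 was the only member past it on mean log2 CPM (-1.02, no test). Of the 16288 genes, 10.5% were more than 2-fold lower. By the log2 ratio of mean CPM, C6 (-2.97), C2 (-1.36) and Cd59a (-1.17) were past the limit. Without the lymph node mice the C6 difference was 0.19, so C6 was not picked there. Leaving out single mice gave 0 to 3 members past the limit. C7, 183.7 kb from C6 on chromosome 15, was listed at 0 in every mouse, as was C7's partner C9 and each of the C8 genes. Hc, which encodes C5, was above the floor in 4 vehicle mice and 1 BDE-47 mouse.

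Serping1 encodes the C1 inhibitor, the serpin that inactivates C1r and C1s. Vehicle mice ranged from 5.03 to 8.45 log2 CPM (median 7.23) and BDE-47 mice from 5.18 to 7.26 (median 7.05). Vehicle replicates 2, 3, 6 and 8 were above every BDE-47 mouse, and vehicle replicate 5 was below all of them. The difference of means was -0.47 (SE 0.50, limma adjusted p = 0.982, exact permutation p = 0.421) and -0.08 without the lymph node mice.

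Cd59a, a protein anchored to the outer membrane of host cells that blocks assembly of the attack complex, differed most once the lymph node mice were left out. It ranged from 1.17 to 7.58 log2 CPM in vehicle mice (median 7.10) and from 2.70 to 6.54 in BDE-47 mice (median 5.40). No BDE-47 mouse reached the vehicle median, and the low end of the vehicle range was made by lymph node mice 6 and 8, at 1.17 and 4.81. The other 6 vehicle mice lay between 6.31 and 7.58, and only BDE-47 replicate 3 (6.54) was above the lowest of them, replicate 2. With all 15 mice the means were 6.10 ± 2.19 (SD, n = 8) and 5.31 ± 1.28 (SD, n = 7), a difference of -0.79 (SE 0.71, limma p = 0.270, adjusted p = 0.982, exact permutation p = 0.430). With 13 mice the vehicle mean was 7.14 ± 0.46 (SD, n = 6) and the difference -1.83 (SE 0.52, 95% interval -2.87 to -0.79), or 3.56-fold lower.

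This 13-mouse difference did not pass correction either. The limma p was 0.000794, rank 5 of 9500 genes, with an adjusted p of 0.928, and the exact permutation p was 0.0035 with an adjusted value of 1. That adjusted value could hardly be low, since the exact test with 13 mice can give no p under 0.000583. All 7 BDE-47 mice were below the vehicle mean. With 13 mice, 2.85% of all genes tested had an unadjusted limma p under 0.05 with a lower mean. Of the 16288 genes, 10.2% were more than 2-fold lower, Cd59a being the only member among them. Leaving out BDE-47 replicate 6, the muscle mouse, gave -1.96 (limma p = 0.000319, adjusted p = 0.606), and leaving out each of the 13 mice in turn gave -2.04 to -1.40 with exact permutation p from 0.00217 to 0.00758. BDE-47 replicate 2, at 2.70, was the lowest of its group, and the smallest of these differences, -1.40, was the one without it.

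With 13 mice, adipocyte markers also had a lower mean with BDE-47. Over the 8 markers, the mean level was 9.06 log2 CPM in the 6 vehicle mice and 8.27 in the BDE-47 mice, a difference of -0.79 (exact permutation p = 0.0297, 0.297 adjusted over 10 marker lists), and the summed marker level was 6610 to 21068 CPM against 2585 to 10858 CPM. Cfd, which adipocytes express, had 13.1 ± 0.59 (SD, n = 6) log2 CPM in vehicle and 12.1 ± 0.74 (SD, n = 7) in BDE-47 mice, a difference of -1.01 (SE 0.25, limma p = 0.000122, adjusted p = 0.498, exact permutation p = 0.0175). With the adipocyte marker mean as a term in the model, the Cd59a difference over the 13 mice was -1.57 (SE 0.62, 95% interval -2.80 to -0.33, limma adjusted p = 0.996), which ranked 98 of the 9500 genes by p. In the same fit C3 differed by -0.26, Serping1 by -0.06, C4b by 0.27, C1ra by 0.99 and C2 by 1.21. Their limma adjusted p-values were 0.996 or more. With 15 mice the same 8 markers had a higher mean with BDE-47, by 0.34 (exact permutation p = 0.673), since the 2 lymph node mice had 3.99 and 5.10. Among the BDE-47 mice, the marker mean was lowest in replicate 6 (6.98, with Cd59a at 6.06). Cd59a was lowest in replicate 2 (2.70, with a marker mean of 8.18). The 2 vehicle mice with the lowest marker means, replicates 6 and 8, also had the lowest Cd59a of their group (1.17 and 4.81). Whether Cd59a follows the adipocyte markers from mouse to mouse was not tested.

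**Figure D2:**
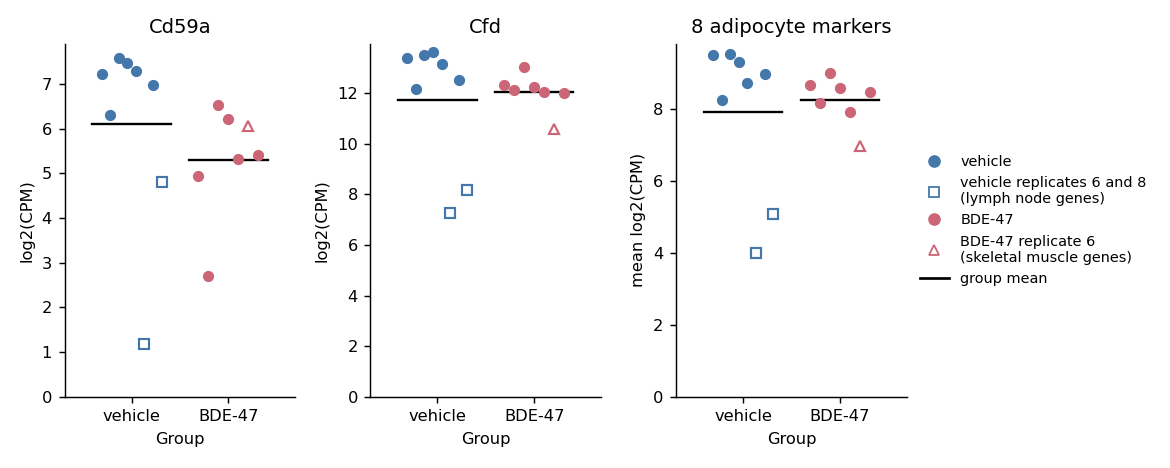
Cd59a, Cfd and the mean of the 8 adipocyte markers in each mouse, in log2(CPM), for vehicle and BDE-47 mice; bars are the means of all mice of a group. In each panel vehicle replicates 6 and 8 (open squares) lie below most other mice, and the BDE-47 mice lie below most of the other 6 vehicle mice.

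None of the other 9 marker lists had an exact permutation p under 0.05 between the groups. With 13 mice the exact permutation p was 0.63 for fibroblast markers (-0.26), 0.732 for macrophage (0.22), 0.853 for luminal epithelium (0.16), 0.137 for myoepithelium (-0.75), 0.598 for endothelium (-0.25), 0.533 for skeletal muscle (1.59), 0.485 for hepatocyte (-0.12), 0.584 for B cell and lymph node (-0.03) and 0.731 for T cell markers (-0.04), where the values in parentheses are differences of mean log2 CPM. Without BDE-47 replicate 6 the difference was 0.08 for skeletal muscle and 0.77 for luminal epithelium (exact permutation p = 0.823 and 0.145). Hepatocyte markers were above the floor for only 1 to 3 of the 8 genes in any mouse. T cell markers, 8 and 7 of 8, were above the floor in vehicle replicates 6 and 8, with summed levels of 501 and 259 CPM, although the strain is athymic.

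Of a wider list of 48 complement genes, 30 were above the floor in at least 1 mouse and 16 entered the test. None passed it, and none had an unadjusted p under 0.05 with 15 mice, the lowest being 0.127 for Clu with limma and 0.146 for Cr1l with the exact permutation test. Means were lower with BDE-47 for 14 of the 16 and higher for 2, with a median difference of -0.53. Of all genes tested, 50.9% were lower, with a median of -0.017. The 16 genes are read in the same libraries, so their directions are not independent. With 13 mice the split was 10 lower and 6 higher with a median of -0.27. All genes tested then had 53.4% lower and a median of -0.070. Cfd was the 1 gene with an unadjusted limma p under 0.05, beside 428 of the 9500 genes tested.

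The classical pathway was the best represented. C1qa, C1qb and C1qc, the chains of the C1q recognition molecule that macrophages make, were above the floor in all mice, with 6.99 ± 0.93, 5.90 ± 1.25 and 5.62 ± 1.61 log2 CPM (SD, n = 8) in vehicle and 6.35 ± 0.97, 5.77 ± 0.76 and 5.19 ± 1.42 (SD, n = 7) in BDE-47 mice. The differences of -0.64, -0.13 and -0.42 became -0.28, 0.24 and 0.02 with 13 mice. The proteases C1rb, C1rl and C1s1 differed by -1.28, -0.33 and -0.28 with 15 mice and by -0.75, -0.63 and -0.58 with 13. Each of these 6 was lower with 15 mice, and C1qb and C1qc were not with 13. C1s2 and C4a were above the floor in 4 and 3 mice. In the lectin pathway, Fcna, a ficolin of macrophages, was above the floor in 6 of 8 vehicle and 3 of 7 BDE-47 mice (difference -1.10, -1.57 with 13 mice), Colec11 in 6 mice, Colec12 in 2 and Masp2 in 2, both of them BDE-47 mice.

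In the alternative pathway, Cfd had a difference of 0.33 with 15 mice, turned by the lymph node mice from the -1.01 given above, and Cfp, properdin, which stabilises the convertase, had -0.85 (0.15 with 13 mice). Among regulators in fluid, Clu, a chaperone that binds terminal components, differed by -0.79 with 15 mice and -0.26 with 13, and by 0.22 once BDE-47 replicate 6 was left out as well, and Vtn was above the floor in 6 mice. On membranes, Cd55, which speeds decay of convertases, differed by -1.13 (-0.17) and Cr1l, the rodent Crry inhibitor, by -0.67 (-0.70), the values in parentheses being those of 13 mice. Cd59b, the copy of Cd59a 9.96 kb away, was above the floor in 5 mice, Csmd1 and Susd4 in 3 each and Cd46 in 2. The last 300 transcript bases of Cd59a and Cd59b were 55.3% identical, with a longest shared run of 55 bases.

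Receptor genes were uneven across mice. Cr2, the receptor for C3 fragments on B cells and follicular dendritic cells, was at 7.54 and 7.22 log2 CPM in the 2 lymph node mice and 3.30 in vehicle replicate 7, and at 0 in the other 12. Itgb2 and Itgax, chains of the leukocyte integrins that bind iC3b, differed by 0.03 and -0.70 with 15 mice and by 1.68 and 0.01 with 13. C3ar1, the C3a receptor, differed by -0.02 (0.12 with 13 mice) and Cd93 by -0.26 (-0.54 with 13 mice). C5ar1 and Vsig4 were above the floor in 5 mice each. The remaining 18 genes were listed at 0 in all mice: Mbl1, Mbl2, Fcnb, Colec10, Masp1, C8a, C8b, C8g, C9, Cfi, C4bp, Cpn1, Cpn2, Cpb2, Cd55b, Csmd2, Csmd3 and C5ar2.

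**Figure D3:**
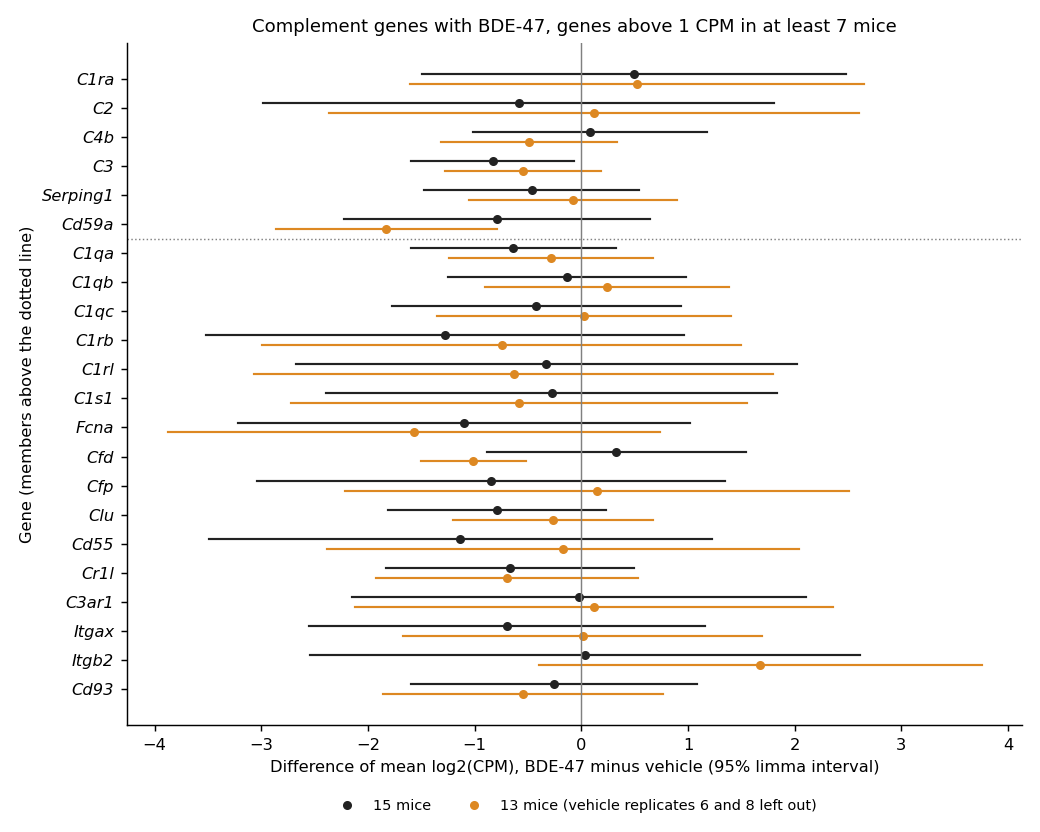
Difference of mean log2(CPM), BDE-47 minus vehicle, with its 95% limma interval for the 6 members tested (above the dotted line) and the 16 other complement genes tested, with 15 mice (black) and with 13 mice (orange). The intervals of most genes cross 0 in both, and those of Cd59a and Cfd lie below 0 with 13 mice, those of C3 with 15.

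**Figure D4:**
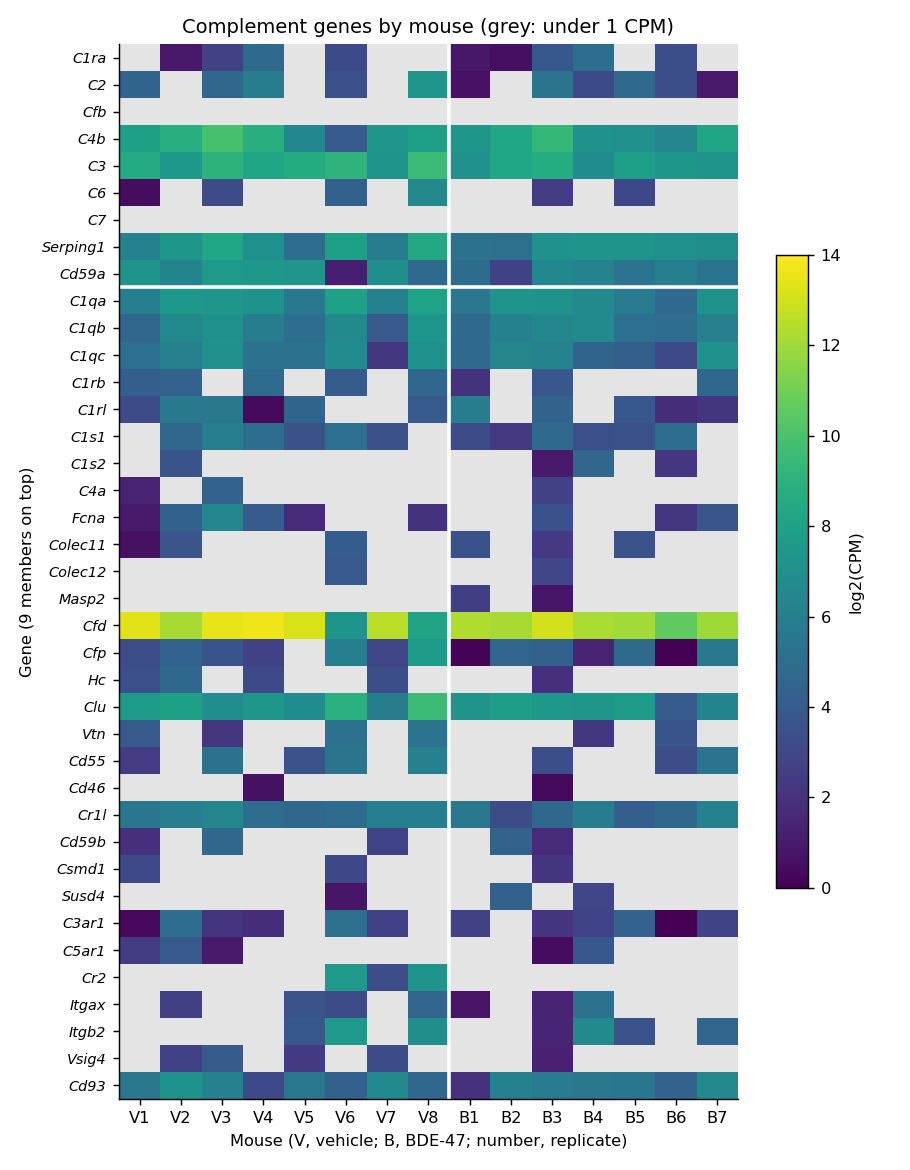
Level of the 9 members and the 30 other complement genes above the floor in at least 1 mouse, by mouse (V, vehicle; B, BDE-47), as log2(CPM) by colour with values under 1 CPM in grey. Few genes reach all mice, Cfd is the brightest row, and Cr2 is present mainly in V6 and V8.

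The members varied together to different degrees from mouse to mouse. Among the 15 pairs of the 6 tested members, Pearson's r of log2 CPM over the 15 mice ran from -0.19 (C3 with Cd59a) to 0.68 (C2 with Serping1), and 12 pairs were above 0. Over the 13 mice it ran from -0.01 (C1ra with C3) to 0.61 (C2 with Serping1), and 14 pairs were above 0. C4b with C3 had 0.03 over 15 mice and 0.50 over 13. Both genes of a pair are read in the same library of each mouse, so these values are a description.

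For each tested member, the genes whose levels followed it most closely across the 15 mice were found by Pearson's r, as a description, since the genes compared share the library of each mouse. Cd59a was followed by Ephx2 (r = 0.93), Tsc22d1 (0.91) and Aoc3 (0.89), with 0.86, 0.82 and 0.77 over the 13 mice. C4b was followed by Steap4 (0.89), Ehd2 (0.85) and Aqp1 (0.85), with 0.78, 0.70 and 0.92 over 13. The nearest genes of C3 were Prc1 (0.85), Galns (0.81) and Psmb8 (0.80), with 0.81, 0.69 and 0.68 over 13. For Serping1 they were Tatdn2 (0.87), Lyz2 (0.84) and Fbxo46 (0.82), for C2 Pip5k1c (0.88), Nle1 (0.88) and Utp18 (0.87), and for C1ra Prpsap2 (0.85), Ppp1r21 (0.78) and B3gntl1 (0.76). Over 13 mice the 9 values for Serping1, C2 and C1ra ran from 0.76 to 0.91.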

How the data were processed

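Mammary RNA of 8 vehicle and 7 BDE-47 mice, grouped by the treatment label, was sequenced as QuantSeq 3′ FWD libraries. Per the labels, the authors used STAR 2.5.3a and GRCm38, and they scaled to CPM. The deposited values are log2(CPM), where a gene that does not reach 1 CPM is given as 0. That floor was read from the values. The counting tool and its use of strand are not given in the sources used here. All low values were whole multiples of 1 read (tolerance 0.05 reads), which gave the depth. Values at 0 were not confined to genes with a mean near the floor: genes with a mean of 10 to 20 CPM were at 0 in 26.6% of their values. The cause of these zeros was not tested. No counts were tested, since the floor hides values under 1 CPM.

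Of 52636 entries per mouse, 216 with a repeated name were left out (Itgam among them). The log2 values of 9500 genes above the floor in at least 7 mice were tested with limma 3.58.1 (R 4.3.3, trend in the prior variance), with Benjamini-Hochberg adjustment, and by the exact two-sided permutation test of group means. The smallest p that test can give is 0.000155 with 15 mice and 0.000583 with 13. The test code was tested on simulated data. No xenograft covariate could be used. Mice are separate animals. Replicate numbers did not pair them: over 7 same-numbered pairs, correlations of deviations from group means were -0.018 to 0.053. Positions, promoters and neighbours are from RefSeq GRCm38.p6. Transcript end sequences and overlapping models, found by position, are from GENCODE M39.

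The members and the lists of other complement genes and cell markers were chosen with earlier results of these data known. Of the wider complement list, 1 more gene is not reported here. All members were named, with every tested gene of the wider complement list, the others by mice above the floor, and the 3 genes with the highest Pearson r for each tested member. Alternatives were pseudocounts, filters, scaling, a covariate, a replicate block, leaving out mice, and floors of 2 and 4 CPM. Leaving out BDE-47 replicate 6 and the adipocyte term were added after the data were seen.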

Additional observations from a re-analysis of the deposited data

Results flagged for a closer look

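Within each group of mice, the lowest or highest mouse was set against its nearest neighbour relative to the whole range of the group. Of 66 such groups (complement genes and marker lists in vehicle or BDE-47 mice), 11 had a mouse that stood out. Chance flags about 1 in 20 groups of normally distributed values, a rate that does not hold where most mice are at 0.

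Cd59a stood out at the low end in both groups. It was 1.17 log2 CPM in vehicle replicate 6, with the next vehicle mouse at 4.81, and 2.70 in BDE-47 replicate 2, with the next BDE-47 mouse at 4.93. Vehicle replicate 6 also held lymph node genes and a summed adipocyte marker level of 354 CPM. The part of these in the Cd59a value was not tested.

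BDE-47 replicate 6 was the lowest of its group for Cfd (10.57 log2 CPM, next 12.02), for Clu (3.94, next 6.33) and for the mean of the luminal epithelium markers (2.39, next 5.78). It was the highest for skeletal muscle markers, with a mean of 13.44 log2 CPM against 3.73 in the next mouse. With vehicle replicates 6 and 8 left out, leaving out this mouse as well moved the group difference of Cfd from -1.01 to -0.76 and that of Clu from -0.26 to 0.22.

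Among the single values left, C1qc was 2.24 log2 CPM in vehicle replicate 7 (next 5.09), and Itgax was 5.25 in BDE-47 replicate 4 (next 1.33). BDE-47 replicate 3 had the only B cell and T cell marker signal of its group, at mean levels of 0.16 and 0.40 log2 CPM, with the other 6 at 0. Hepatocyte markers were highest in BDE-47 replicate 1, with a mean of 1.90 (next 1.25).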

How the results depend on the processing

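No member passed an adjusted p of 0.05 with limma under any alternative, and adjusted p-values ranged from 0.490 to 1. C3, Serping1 and Cd59a were lower with BDE-47 in all 25 settings tried on each, apart from leaving out single mice from the 13, where Serping1 ran from -0.40 to 0.26 while C3 (-0.73 to -0.38) and Cd59a stayed lower. C2 changed sign with log2(CPM + 0.1) (0.21), without vehicle replicates 6 and 8 (0.12) and with the adipocyte term added to that (1.21). C4b changed sign with the number of genes above the floor as a covariate (-0.023), without vehicle replicates 6 and 8 (-0.49) and without BDE-47 replicate 6 as well (-0.29). Leaving out 1 mouse at a time gave -0.45 to 0.40 for C4b, -0.027 to 0.97 for C1ra, -1.01 to -0.68 for C3 (unadjusted limma p of 0.05 or more in 6 of 15) and -1.50 to -0.36 for Cd59a, whose unadjusted p was 0.00908 without vehicle replicate 6.

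The number of members past 2-fold, 1 in the report, was 2 with log2(CPM + 0.1), 3 by the ratio of mean CPM, 0 with median-of-ratios scaling and 0 to 3 without single mice. It was also 0 among genes above the floor in all mice and with the covariate, but C6, the member past the limit, was not among the genes of those fits. Genes with an unadjusted p under 0.05 numbered 115 among those above the floor in all mice, where fewer genes were tested. Without vehicle replicates 6 and 8, and without BDE-47 replicate 6 as well, 1 other complement gene (Cfd) had an unadjusted p under 0.05. Without all 3 mice, 1 of all genes passed adjustment (Wfdc18). Apart from these counts the cause of each change was not tested. With a replicate block, in which vehicle replicate 8 has no partner and adds nothing to the difference, no member passed, 0 of the tested members (C6 not among them) were past 2-fold, 370 genes had an unadjusted p under 0.05, and C3 differed by -0.68 and Cd59a by -0.98. The numbers do not pair the mice.

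The floor limits what can be said of Cfb and C7, which lie under 1 CPM in all mice. It also limits C1ra, C2 and C6, which lie under it in part of them. Where above the floor, C2 had 16 to 1882 reads, C6 21 to 1139 and C1ra 19 to 644. The cause of the zeros was not tested. The 13-mouse values were computed after those 2 mice were known to hold lymph node genes.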
